A study of Mus musculus with 6 samples.

Results

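The genes described here are 39 ligands, receptors, Smads and inhibitors of the TGF-beta, activin and BMP pathways. They were named as a list by pathway and not by a cutoff on measured values, but with earlier results of these data known. All probe sets mapped to exactly 1 of these symbols were taken, and the brightest by its mean over 6 arrays stood for the gene. Of the 39 genes, 38 had such a probe set, among 18194 genes in all, and 35 passed an intensity filter and were tested among 12152 genes. No probe set was mapped here to Bmp3 alone, and Smad6, Grem1 and Nog lay below the filter.

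TGF-beta family ligands bind pairs of type I and type II serine/threonine kinase receptors, which phosphorylate receptor-activated Smads. TGF-betas and activins act mainly through Smad2 and Smad3 and BMPs through Smad1, Smad5 and Smad9, and each group joins Smad4 to enter the nucleus. In the mammary gland, TGF-beta is known to restrain the growth of ducts and alveoli. Binding proteins outside the cell, inhibitory Smads, ubiquitin ligases and nuclear co-repressors limit the signal.

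RNA came from YFP+ luminal mammary epithelial cells (MECs) sorted from adult virgin females on a mixed B6/129/FVB background. The mice with deletion were MMTV-Cre;Runx1L/L;R26Y (Runx1-null, 3 mice), and the controls were MMTV-Cre;Runx1+/+;R26Y (Runx1-WT, 3 mice). Both thus carried Cre, driven by the mouse mammary tumor virus promoter, and the conditional YFP reporter, and they differed in the floxed Runx1 alleles. Each mouse gave 1 array. YFP marks recombination of the reporter and not of Runx1 itself. By qRT-PCR, the study reports loss of Runx1 expression in YFP+ MECs of Runx1L/L mice. It raises possible escape from deletion for the marked cells that remained in the mature luminal gate. In such bulk samples, fewer cells of a type and less RNA per cell cannot be told apart.

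Values are linear array intensities, and differences are log2 values, Runx1-null minus Runx1-WT. Values below 19.335, the pooled 20th percentile, made up 19.3% to 22.3% of the Runx1-null arrays and 18.8% to 20.6% of the Runx1-WT arrays. Runx1 itself averaged 3523 ± 1272 in Runx1-null and 3317 ± 1134 in Runx1-WT mice (SD, n = 3 each), and since the place of its probes with respect to the floxed exon was not analysed, this value does not check the labels. The luminal markers Krt8, Krt18, Krt19 and Epcam were bright on every array, and 7 of 7 luminal markers with a probe set passed the filter. Their summed intensity was 62743 to 72558 in Runx1-null and 62241 to 67831 in Runx1-WT mice. Markers of other cells were also detected. The 8 fibroblast markers summed to 5302 to 14168 in Runx1-null and 12869 to 16259 in Runx1-WT mice, and 8 of 8 lay below 0. Of 8 basal markers 6 passed the filter, and their list summed to 4347 to 11166 in Runx1-null and 4565 to 8633 in Runx1-WT mice. Endothelial markers (7 of 8 passed, sums of 1108 to 1348 in Runx1-null and 1669 to 2206 in Runx1-WT mice) and pericyte markers (5 of 6 passed, sums of 4591 to 4824 in Runx1-null and 5362 to 6211 in Runx1-WT mice) did not overlap between genotypes. Notch3 made up most of the pericyte sums, at 3315 to 4145 in Runx1-null and 3564 to 3908 in Runx1-WT mice. It overlapped between genotypes (difference -0.04). Leukocyte markers (6 of 8 passed) summed to 1537 to 2686 in Runx1-null mice and to 1420 to 8187 in Runx1-WT mice, where mouse 3 held the highest sum. Of the 4 adipocyte markers with a probe set, Fabp4 alone passed, and they summed to 1965 to 3342 in Runx1-null and 2972 to 3430 in Runx1-WT mice. None of the markers was below the 20th percentile on all arrays. As a measure of RNA quality, the 3' control probe set of Gapdh exceeded the 5' one on the log2 scale by 0.551, 0.473 and 0.609 in Runx1-null mice and 0.464, 0.466 and 0.459 in Runx1-WT mice (exact permutation test, two-sided, p = 0.1). For beta-actin the genotypes overlapped in this measure, with 0.517, 0.439 and 0.737 in Runx1-null mice and 0.509, 0.521 and 0.496 in Runx1-WT mice (exact permutation test, two-sided, p = 0.8).

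No difference between Runx1-null and Runx1-WT luminal MECs was detected for any pathway gene. Limma called 0 of the 35 tested members at a Benjamini-Hochberg adjusted p under 0.05, beside 0% of all genes tested, and 0 members had an unadjusted p under 0.05, beside 1.93% of all genes (0.642% higher and 1.28% lower in Runx1-null mice). The adjusted p was 1 for every member. The differences ran from -0.49 for Bmp4 to 0.44 for Tgfbr3, with a median of -0.05, against -0.02 over all genes tested. Of the 35 members, 10 lay above 0 and 25 below, or 71.4% below against 55.4% of all genes. This split depended on the scaling of the arrays, since median scaling gave 23 members above 0 and 12 below, or 34.3% below against 35.3% of all genes, and on Runx1-null mouse 3, without which 21 lay above and 14 below.

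The groups did not overlap for 2 members, Bmpr1a and Fstl1, both lower in Runx1-null mice. Of all genes tested, 5.55% did not overlap, 2.08% with the Runx1-null mice higher and 3.47% with them lower. The 2 of 35 members were about the same share as the 5.55%. The 95% interval of the difference lay within 2-fold either way for 22 of 35 members (62.9%), against 72.9% of all genes. For the other 13, the interval reached 2-fold or more. In simulated data with the same spread, over 12152 genes, limma recovered 30 of 100 genes changed 2-fold and 75 of 100 changed 4-fold. Recovery at an adjusted p depends on how many genes are changed, and here that number was set by the simulation. How variation shared by many genes of the real arrays would alter recovery was not tested. The counts therefore describe the simulation, and recovery in these mice may be lower.

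**Figure D1:**
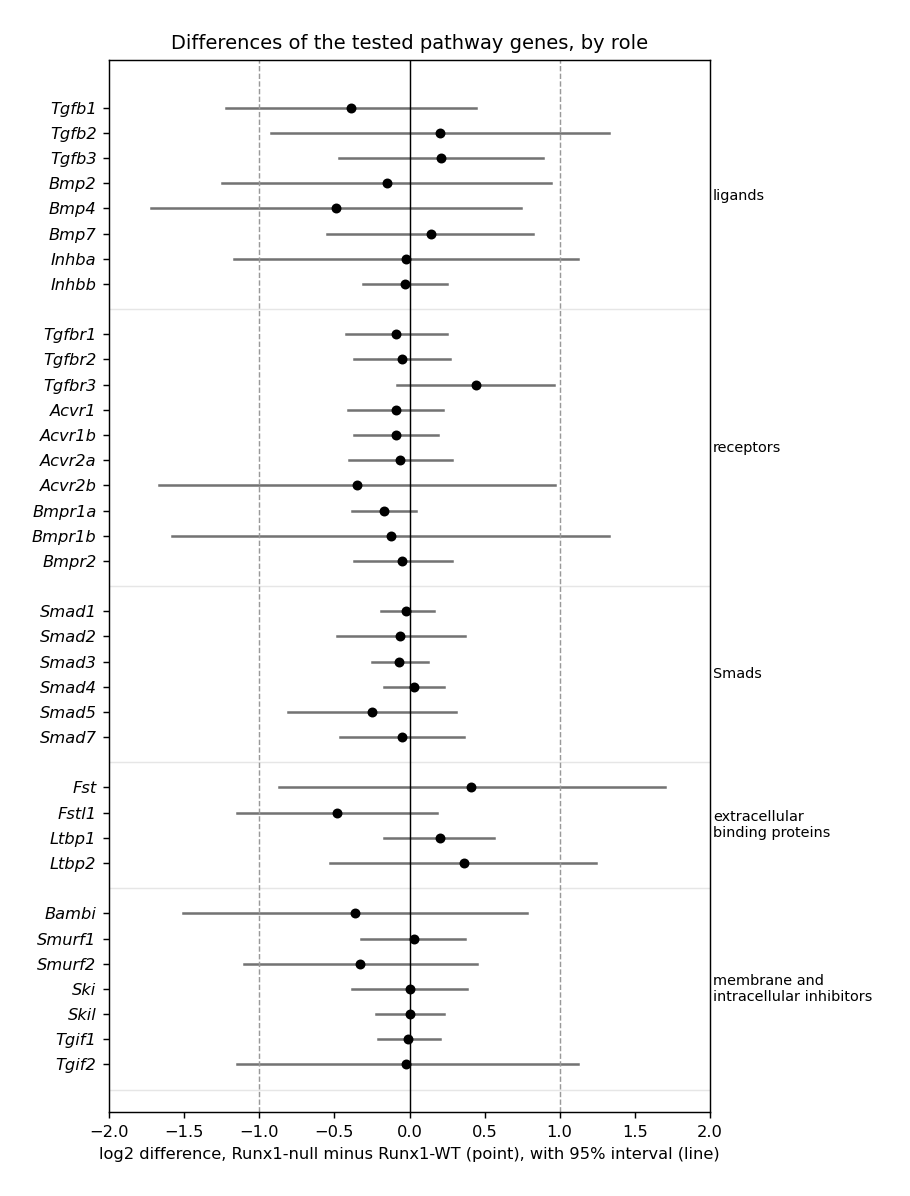
Log2 difference (x axis, Runx1-null minus Runx1-WT, points) of the 35 tested pathway genes with its 95% interval (lines) from limma, by role down the page. Differences run from -0.49 to 0.44 and every interval crosses 0, and the intervals are narrow for the Smads and most receptors and wide for several ligands and binding proteins.

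For each of the 3 TGF-beta ligands the genotypes overlapped. Tgfb1, the TGF-beta isoform known best for its control of growth and immunity, had intensities of 218, 200 and 432 in Runx1-null mice, against 371, 414 and 276 in Runx1-WT mice. Runx1-null mice 1 and 2 were the lowest of the 6, and Runx1-null mouse 3 was the highest. The difference was -0.39 (standard error 0.35, limma unadjusted p = 0.301, exact permutation test, two-sided, p = 0.4). Leaving out Runx1-null mouse 3 gave -0.74 and leaving out Runx1-null mouse 2 gave -0.19. Tgfb2 was at 4602, 5560 and 1916 in Runx1-null mice, against 3949, 1860 and 4368 in Runx1-WT mice. Runx1-null mouse 3 and Runx1-WT mouse 2 lay far below the other 4 mice. The difference was 0.20 (standard error 0.47, exact permutation test, two-sided, p = 0.5), which became 0.67 when Runx1-null mouse 3 was left out and -0.18 when Runx1-WT mouse 2 was. The other 3 probe sets of Tgfb2 gave 0.20 to 0.36. Tgfb3, which mammary epithelium is known to induce at the end of lactation, was at 1512, 2504 and 2675 in Runx1-null mice, against 2178, 1365 and 2200 in Runx1-WT mice (difference 0.21, standard error 0.29).

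Of the BMP ligands, Bmp4, which patterns many embryonic tissues, had the largest fitted difference of all 35 members and also a wide interval. Its intensity was 35.1, 64.1 and 139 in Runx1-null mice, against 86.7, 106 and 94.8 in Runx1-WT mice. The Runx1-WT mice lay close together, inside the range of the Runx1-null mice. The difference was -0.49 (standard error 0.52, 95% interval -1.72 to 0.74, exact permutation test, two-sided, p = 0.5). Leaving out Runx1-null mouse 3 gave -1.01 and leaving out Runx1-null mouse 1 gave -0.02. Bmp2 was at 303, 211 and 174 in Runx1-null mice, against 202, 156 and 486 in Runx1-WT mice, of which mouse 3 was the highest of all 6. It differed by -0.15 (standard error 0.46) and by 0.33 without that mouse. Bmp7 was dim in every mouse, at 81.3, 90.5 and 76.8 in Runx1-null and 65.6, 85 and 75.9 in Runx1-WT mice (difference 0.14, standard error 0.29).

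The activin subunits Inhba and Inhbb form activins A and B, and either pairs with the inhibin alpha subunit to form inhibins. Inhbb was the brightest ligand probe set, at 5404, 6806 and 6792 in Runx1-null mice, against 6949, 6596 and 5777 in Runx1-WT mice. The mice of both genotypes covered nearly the same range, and the difference was -0.03 (standard error 0.12, 95% interval -0.31 to 0.25). Inhba was at 260, 129 and 90.5 in Runx1-null mice, against 101, 137 and 229 in Runx1-WT mice (difference -0.02, standard error 0.48). Over the 8 tested ligands, 3 lay above 0 and 5 below with a median of -0.02, and the interval stayed within 2-fold for 3 of them. In 5 of the 8 the highest mouse was over 2 times the lowest.

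**Figure D2:**
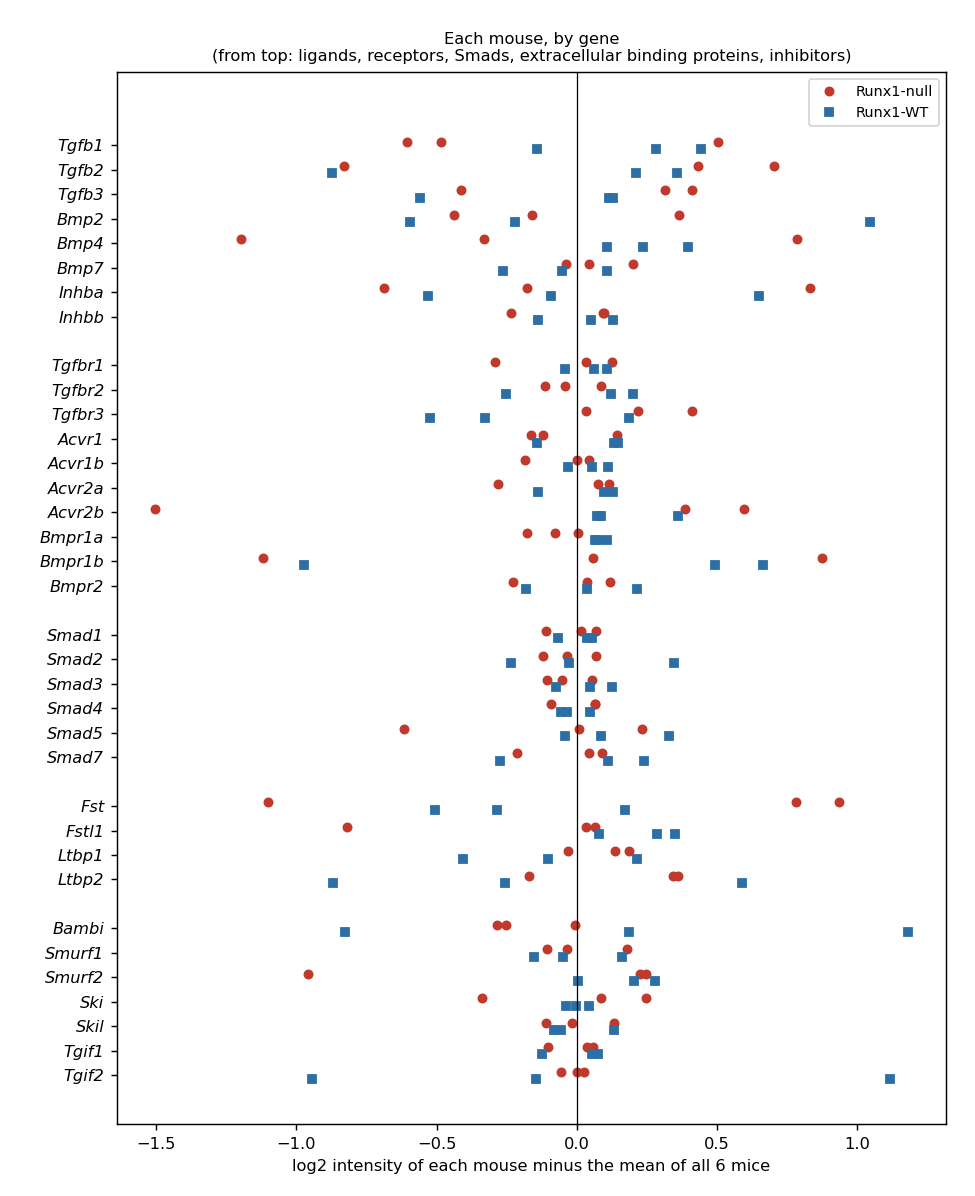
Log2 intensity of each of the 35 tested genes in each mouse minus the mean of all 6 mice (x axis), with Runx1-null mice as red circles and Runx1-WT mice as blue squares, 1 gene to a row. The colors overlap in every row but those of Bmpr1a and Fstl1, and Runx1-null mouse 3 is the lowest mouse for 16 of the 35 genes.

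The receptors showed smaller spread between mice than the ligands, with a median standard error of 0.14 against 0.41. Of the 10 receptors, 9 had a difference below 0, with a median of -0.09 that was 0.00 after median scaling and 0.05 without Runx1-null mouse 3. The type I receptor Tgfbr1, the kinase that phosphorylates Smad2 and Smad3, was at 3032, 3237 and 2424 in Runx1-null mice, against 3195, 2878 and 3097 in Runx1-WT mice. Runx1-null mouse 3 was the lowest and Runx1-null mouse 2 the highest. The difference was -0.09 (standard error 0.14, 95% interval -0.42 to 0.25). The type II receptor Tgfbr2, which binds TGF-beta and activates Tgfbr1, was at 4362, 5013 and 4590 in Runx1-null mice, against 5139, 5432 and 3963 in Runx1-WT mice. All the Runx1-null mice lay within the range of the Runx1-WT mice. The difference was -0.05 (standard error 0.13, 95% interval -0.37 to 0.27).

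Tgfbr3, or betaglycan, is a co-receptor without a kinase that presents TGF-beta2 and binds inhibin, and it had the smallest unadjusted p of the members. Its intensity was 2153, 2464 and 1893 in Runx1-null mice, against 2107, 1475 and 1289 in Runx1-WT mice. Runx1-WT mice 2 and 3 were below every Runx1-null mouse, and Runx1-WT mouse 1 lay within the Runx1-null range. The means were 2170 ± 286 in Runx1-null and 1624 ± 429 in Runx1-WT mice (SD, n = 3 each). The difference was 0.44 (standard error 0.22, 95% interval -0.08 to 0.96, limma unadjusted p = 0.0842, adjusted p = 1, exact permutation test, two-sided, p = 0.2), and it ran from 0.29 without Runx1-WT mouse 3 to 0.65 without Runx1-WT mouse 1. A second, dimmer probe set of Tgfbr3 gave 0.10 (standard error 0.34).

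Of the BMP receptors, Bmpr1a, a type I receptor, was slightly lower in each Runx1-null mouse than in any Runx1-WT mouse. Its intensity was 3588, 4065 and 3839 in Runx1-null mice, against 4367, 4247 and 4276 in Runx1-WT mice. The groups did not overlap, and the gap between the nearest mice was smaller than the range of the Runx1-null mice. The means were 3830 ± 238 in Runx1-null and 4297 ± 63 in Runx1-WT mice (SD, n = 3 each). The difference was -0.17 (standard error 0.09, 95% interval -0.38 to 0.04, limma unadjusted p = 0.0988, adjusted p = 1), or 0.89 times the Runx1-WT level. The exact permutation test, two-sided, gave p = 0.1, the smallest that 3 mice against 3 allow. The difference was -0.21 to -0.12 without each mouse in turn, -0.17 among the 4 mice with the lower animal numbers and -0.16 between the 2 with the upper. After median scaling of the arrays it shrank to -0.08. Overlap was read only on the authors' scaling, so whether the groups stay apart under another scaling is not given here. Of its other probe sets that passed the filter, 1 gave -0.14 without overlap and the others -0.07 and -0.09 with overlap. Endothelial and pericyte marker sums were likewise lower in all Runx1-null mice, as given above, and their part in the Bmpr1a difference was not tested.

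Bmpr1b, another BMP type I receptor, varied much more, at 1157, 656 and 290 in Runx1-null mice, against 1000, 321 and 888 in Runx1-WT mice (difference -0.12, standard error 0.61). As for Tgfb2, the lowest mice were Runx1-null mouse 3 and Runx1-WT mouse 2. Bmpr2, the BMP type II receptor, was at 5018, 5318 and 4178 in Runx1-null mice, against 5674, 5023 and 4315 in Runx1-WT mice, with a difference of -0.05 (standard error 0.14, 95% interval -0.37 to 0.28). The groups covered nearly the same range. The remaining receptors are named for activin, and Acvr1, a type I receptor, takes part in BMP signaling. Acvr1, Acvr1b and Acvr2a had differences of -0.09, -0.09 and -0.06 with standard errors of 0.12 to 0.14. Acvr2b was at 223, 258 and 60 in Runx1-null mice, against 219, 179 and 181 in Runx1-WT mice. Its difference of -0.35 (standard error 0.56) rested on Runx1-null mouse 3 and was 0.32 without it.

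The Smads were the most even group, and for 6 of the 6 tested the interval of the difference lay within 2-fold. The receptor-activated Smads of the TGF-beta and activin branch came close to 0. Smad2 was at 1893, 2155 and 2010 in Runx1-null mice, against 2020, 2615 and 1746 in Runx1-WT mice (difference -0.06, 95% interval -0.48 to 0.37). Smad3 was at 6013, 6476 and 5795 in Runx1-null mice, against 6791, 6435 and 5923 in Runx1-WT mice (difference -0.07, 95% interval -0.25 to 0.12). For both genes the genotypes overlapped. In the BMP branch, Smad1 was at 6137, 6363 and 5629 in Runx1-null mice, against 6298, 6234 and 5797 in Runx1-WT mice (difference -0.02, 95% interval -0.19 to 0.16). Smad5 was at 2408, 2814 and 1564 in Runx1-null mice, against 3012, 2546 and 2328 in Runx1-WT mice. Its difference of -0.25 (standard error 0.24) rested on the low Runx1-null mouse 3 and was -0.01 without it, and its other probe sets gave -0.33 and 0.17.

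Smad4, the partner shared by both branches, was at 4795, 4798 and 4306 in Runx1-null mice, against 4744, 4479 and 4412 in Runx1-WT mice (difference 0.03, 95% interval -0.17 to 0.23). Its other probe sets gave -0.03 and -0.04, so its direction is not settled. Smad7, an inhibitory Smad that TGF-beta induces, was at 2207, 2642 and 2726 in Runx1-null mice, against 2764, 3021 and 2120 in Runx1-WT mice (difference -0.05, standard error 0.17). Smad6, the inhibitory Smad that acts mainly on BMP signaling, lay below the filter at 33.8, 43.9 and 37.4 in Runx1-null and 47.7, 35.9 and 40.7 in Runx1-WT mice and was not tested.

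The extracellular binding proteins varied between mice about as much as the ligands, with a median range over the 6 mice of 1.31 on the log2 scale, against 1.32. Follistatin (Fst), which sequesters activins, was at 1671, 1859 and 453 in Runx1-null mice, against 798, 684 and 1095 in Runx1-WT mice. Runx1-null mice 1 and 2 were the highest of the 6 and Runx1-null mouse 3 was the lowest. The difference was 0.41 (standard error 0.54, 95% interval -0.87 to 1.70). When Runx1-null mouse 3 was left out it was 1.07 (standard error 0.24, limma unadjusted p = 0.00511, adjusted p = 0.933), and it was 0.05 when Runx1-null mouse 2 was. Among the 4 mice with the lower animal numbers it was 1.25, and between the 2 with the upper numbers it was -1.27. The summed basal markers were likewise highest in Runx1-null mouse 2 and lowest in Runx1-null mouse 3, at 10375, 11166 and 4347 in Runx1-null mice, against 6026, 4565 and 8633 in Runx1-WT mice, and their part in the values of Fst was not tested.

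Fstl1, a secreted glycoprotein of the follistatin family known from stromal cells, was the second member without overlap. Its intensity was 564, 552 and 306 in Runx1-null mice, against 689, 571 and 659 in Runx1-WT mice. Runx1-null mouse 3 lay far below the others, and Runx1-null mice 1 and 2 were just below Runx1-WT mouse 2. The means were 474 ± 146 in Runx1-null and 640 ± 60.9 in Runx1-WT mice (SD, n = 3 each). The difference was -0.48 (standard error 0.28, 95% interval -1.15 to 0.18, limma unadjusted p = 0.131, adjusted p = 1), and the exact permutation test, two-sided, gave p = 0.1, again the smallest possible. It was -0.19 when Runx1-null mouse 3 was left out and -0.63 when Runx1-null mouse 1 was. The second probe set gave -0.77 (standard error 0.37), also without overlap. The 8 fibroblast markers summed to 11953, 14168 and 5302 in Runx1-null mice, against 16259, 15135 and 12869 in Runx1-WT mice, with Runx1-null mouse 3 lowest as for Fstl1, and their part in the Fstl1 difference was not tested.

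**Figure D3:**
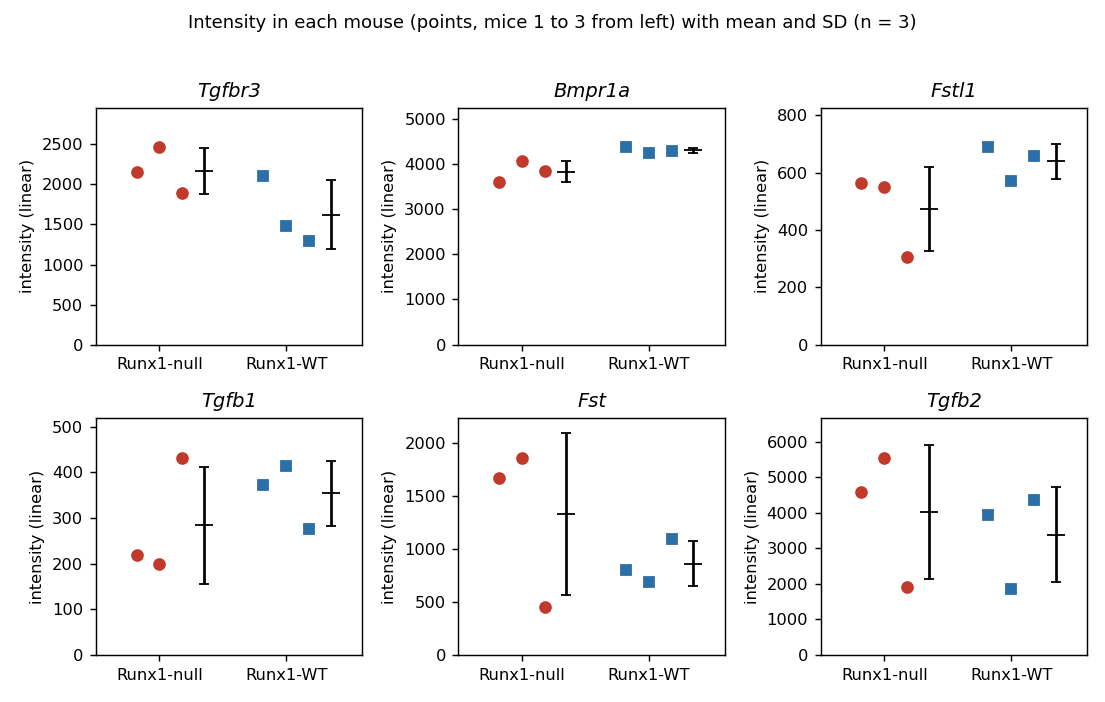
Linear array intensity (y axis, from 0) of selected pathway genes in each mouse (points, mice 1 to 3 from left), Runx1-null left and Runx1-WT right, with mean and SD (bars, n = 3 mice). The genotypes do not overlap for Bmpr1a (3588 to 4065 in Runx1-null, 4247 to 4367 in Runx1-WT mice) and Fstl1, and the other genes overlap.

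The promoters of the 2 members whose genotypes did not overlap are shown because RUNX1 is a transcription factor whose family is known to bind the letters TGTGGT or TGCGGT. About the same share of all genes tested (5.55%) did not overlap, so this choice does not set the 2 apart from other genes. Each covers 300 bases around the transcription start, most of them before it, in RefSeq (build GRCm38.p6), 5′ to 3′ on the strand of the gene, and capitals mark those letters on either strand (ACCACA or ACCGCA on the other strand). The Bmpr1a window is chr14:34502497-34502796 (minus strand) and the Fstl1 window is chr16:37776805-37777104 (plus strand).
Bmpr1a: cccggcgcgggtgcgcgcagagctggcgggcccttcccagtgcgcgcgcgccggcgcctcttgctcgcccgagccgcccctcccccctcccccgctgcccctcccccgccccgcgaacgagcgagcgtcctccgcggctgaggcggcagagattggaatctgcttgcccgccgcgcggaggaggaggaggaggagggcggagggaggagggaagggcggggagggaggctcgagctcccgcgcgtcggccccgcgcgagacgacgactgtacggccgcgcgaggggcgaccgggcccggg
Fstl1: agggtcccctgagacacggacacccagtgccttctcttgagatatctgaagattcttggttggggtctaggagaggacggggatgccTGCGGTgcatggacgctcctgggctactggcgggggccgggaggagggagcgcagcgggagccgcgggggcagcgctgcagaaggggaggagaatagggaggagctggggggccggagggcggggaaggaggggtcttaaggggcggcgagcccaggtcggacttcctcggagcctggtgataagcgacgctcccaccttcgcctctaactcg
The Fstl1 window held 1 match, TGCGGT, starting at -163 from the transcription start, and the Bmpr1a window held none. Of the 27 members with a promoter in the RefSeq table, 3 held a match in the first window listed (11.1%), namely Acvr2a, Smurf2 and Fstl1, against 6090 of 27025 genes in the table (22.5%). A match describes letters and not binding, which these arrays did not measure.

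Ltbp1 encodes a latent TGF-beta binding protein of the matrix. Ltbp1 was at 6888, 7742 and 8011 in Runx1-null mice, against 6556, 5319 and 8163 in Runx1-WT mice. Runx1-WT mouse 3 was the highest of the 6 and the other Runx1-WT mice were the lowest. The difference was 0.20 (standard error 0.15, 95% interval -0.17 to 0.56). Leaving out Runx1-WT mouse 3 gave 0.35 and leaving out Runx1-WT mouse 2 gave 0.04. The other probe sets of Ltbp1 gave 0.35 and 0.50. Ltbp2, a matrix protein of the same family, was at 1657, 1678 and 1163 in Runx1-null mice, against 1096, 715 and 1968 in Runx1-WT mice. The Runx1-WT mice spanned the whole range of the Runx1-null mice. The difference was 0.36 (standard error 0.37). Leaving out Runx1-WT mouse 3 gave 0.74 and leaving out Runx1-WT mouse 2 gave 0.01. The BMP antagonists Grem1 and Nog were not tested. Grem1 was at 31, 25.8 and 46 in Runx1-null and 17.5, 41.5 and 33.1 in Runx1-WT mice, and Nog was below 19.335 on all 6 arrays.

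Of the 7 inhibitors at the membrane and inside the cell, 2 lay above 0 and 5 below. The nuclear co-repressors Ski and Skil bind Smads at target genes. Skil was at 5623, 6242 and 5276 in Runx1-null mice, against 6239, 5475 and 5388 in Runx1-WT mice (difference 0.00, 95% interval -0.22 to 0.23), and Ski differed by -0.00 (standard error 0.16). The homeodomain co-repressor Tgif1 was at 5396, 6035 and 5940 in Runx1-null mice, against 6113, 6022 and 5324 in Runx1-WT mice (difference -0.01, 95% interval -0.21 to 0.20). For Skil and Tgif1 the ranges of the genotypes nearly coincided. Tgif2, a relative of Tgif1, was even in Runx1-null mice, at 1134, 1153 and 1091, and spread in Runx1-WT mice, at 1024, 589 and 2458 (difference -0.02, standard error 0.48).

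Smurf1 and Smurf2 are ubiquitin ligases that mark receptors and Smads for degradation. Smurf2 was at 3214, 3259 and 1413 in Runx1-null mice, against 3337, 3168 and 2755 in Runx1-WT mice. Runx1-null mouse 3 alone stood apart. The difference was -0.33 (standard error 0.33, 95% interval -1.10 to 0.45) and 0.07 without that mouse, and its other probe sets gave 0.01 and -0.16. Smurf1 differed by 0.03 (standard error 0.14). Bambi, a pseudoreceptor that lacks the kinase, was at 222, 263 and 217 in Runx1-null mice, against 301, 149 and 600 in Runx1-WT mice. Its difference of -0.36 (standard error 0.48) rested on Runx1-WT mouse 3 and was 0.14 without it.

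Across the 35 members, 1 mouse was often the lowest. Runx1-null mouse 3 was the lowest of the 6 mice for 16 members (45.7%, against 24.5% of all genes tested), and Runx1-WT mouse 2 was the lowest for 7 (20%, against 25%). The mean centered log2 level of the receptors was 0.12, 0.17 and -0.38 in Runx1-null mice, against 0.21, -0.06 and -0.05 in Runx1-WT mice. That of the 4 tested binding proteins was 0.29, 0.37 and -0.48 in Runx1-null mice, against -0.07, -0.42 and 0.32 in Runx1-WT mice. In both groups of genes Runx1-null mouse 3 was low and the other Runx1-null mice were not. Over all genes the centered means were -0.02, 0.04 and -0.07 in Runx1-null mice, against 0.07, -0.08 and 0.06 in Runx1-WT mice. Those of basal markers were 0.33, 0.76 and -0.67 in Runx1-null mice, against -0.24, -0.52 and 0.33 in Runx1-WT mice. Fibroblast markers were at -0.07, 0.37 and -1.22 in Runx1-null mice, against 0.59, 0.25 and 0.08 in Runx1-WT mice. The means of basal and of fibroblast markers were thus both lowest in Runx1-null mouse 3. Of the single basal markers, only Krt5 and Krt14 were lowest there. Acta2 and Oxtr were lowest in Runx1-WT mouse 2, Mylk in Runx1-null mouse 1 and Trp63 in Runx1-WT mouse 3. Runx1-null mouse 3 also had the highest Gapdh and beta-actin 3' to 5' differences (0.609 and 0.737). The array of that mouse had the lowest median intensity, 106.3 against 129.1 to 163.4 on the others. It also had the largest share of values below 19.335, 22.3%. The part of the markers and of these array measures in the spread of the pathway genes was not tested. The first principal component of all genes tested (51.2% of the variance) placed Runx1-null mice at -44.11, -3.48 and 39.67 and Runx1-WT mice at 11.36, 38.73 and -42.17, so that it did not follow genotype and set Runx1-null mouse 3 beside Runx1-WT mouse 2.

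**Figure D4:**
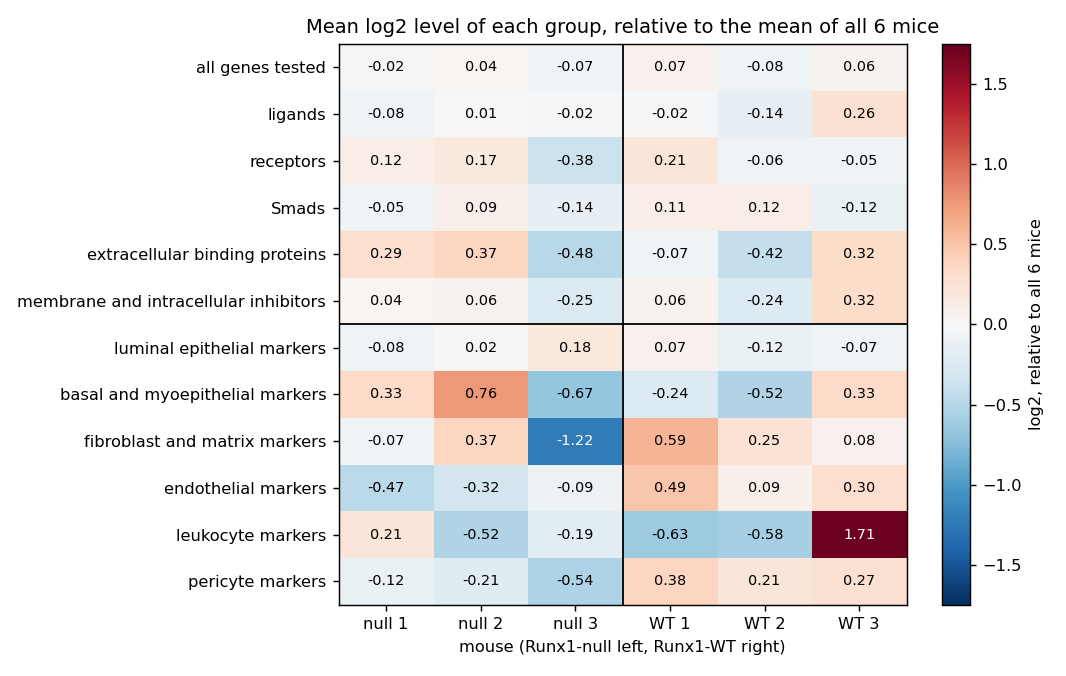
Heat map of the mean log2 level, relative to the mean of all 6 mice (color and printed value), of all genes tested, the roles of pathway genes (upper rows) and cell type markers (lower rows) in each mouse (columns, Runx1-null left, Runx1-WT right). Receptors and extracellular binding proteins are lowest in Runx1-null mouse 3, at -0.38 and -0.48, as are basal markers at -0.67 and fibroblast markers at -1.22.

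Other genes of the pathways, in 7 lists of 88 genes, were read from the same fit. Of these, 79 had a probe set and 51 were tested, and limma called 0 of them, with 0 at an unadjusted p under 0.05, 23 above 0 and 28 below. Of 20 other ligands with a probe set, 2 were tested, Bmp1 at -0.39 (standard error 0.33) and Gdf10 at -0.35 (standard error 0.36), and the rest lay below the filter. The co-receptor Rgmb, which binds BMPs, was at 1019, 1390 and 952 in Runx1-null mice, against 1630, 1527 and 1379 in Runx1-WT mice. The genotypes overlapped slightly, by Runx1-null mouse 2 and Runx1-WT mouse 3 (difference -0.45, standard error 0.20, limma unadjusted p = 0.0564, adjusted p = 1). Rgma, its relative, differed by 1.11 with a standard error of 1.08. Among the activators, the integrin subunits Itgav and Itgb8, which release latent TGF-beta, differed by -0.02 (standard error 0.07) and 0.52 (standard error 0.43), and the latent binding protein Ltbp4 by -0.14 (standard error 0.28). Of the Smad adaptors and ligases, 7 of 7 tested had intervals within 2-fold, with Hipk2, a kinase that acts with Smad co-repressors, at -0.34 (standard error 0.19), the ubiquitin ligase Nedd4l at 0.25 and the Smad phosphatase Ppm1a at -0.00.

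Of the secreted antagonists, Fstl3, a follistatin-like activin binder, had all its Runx1-null mice higher. It was the 1 such gene of the 51 tested in these lists, where 2.08% of all genes tested were higher without overlap. Its intensity was 193, 175 and 218 in Runx1-null mice, against 149, 173 and 117 in Runx1-WT mice. Runx1-null mouse 2 and Runx1-WT mouse 2 were almost level (difference 0.43, standard error 0.26, exact permutation test, two-sided, p = 0.1). The BMP antagonist Chrdl1 differed by -0.59 (standard error 0.34) and the BMP modulator Twsg1 by -0.08 (standard error 0.08).

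Genes known to respond to each branch gave the downstream view. Of 14 tested TGF-beta response genes, 8 were below 0 and 6 above (median -0.04). Pmepa1 and Klf10, both direct TGF-beta targets, differed by -0.07 (standard error 0.07) and -0.04 (standard error 0.08). The cell cycle inhibitor Cdkn1a differed by 0.24 (standard error 0.18), the scaffold gene Ahnak by -0.04 (standard error 0.08) and the matrix gene Fn1 by -0.63 (standard error 0.44). The ends of the list were Ccn2, a matricellular target of TGF-beta, and Col1a1, a collagen gene. Ccn2 was at 6355, 6035 and 1415 in Runx1-null mice, against 2517, 1876 and 3130 in Runx1-WT mice (difference 0.63, standard error 0.57). Runx1-null mice 1 and 2 were the highest and Runx1-null mouse 3 the lowest, as for Fst. Col1a1 was at 2339, 2278 and 709 in Runx1-null mice, against 2489, 1984 and 2896 in Runx1-WT mice (difference -0.64, standard error 0.46). Cdkn2b, another cell cycle inhibitor, differed by 0.46 (standard error 0.46) and the matrix gene Tgfbi by -0.59 (standard error 0.48). Ccn2, Col1a1, Fn1 and Tgfbi were lowest in Runx1-null mouse 3 whatever their sign, as were 24.5% of all genes tested. Klf10, Klf11, Cdkn1a, Junb and Bhlhe40 of the same list were highest in that mouse. The fibroblast sum was also lowest there, but Col1a1 is itself among the fibroblast markers in that sum. The part of fibroblast RNA in these genes was not tested.

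Of 9 tested BMP response genes, 5 were below 0 and 4 above (median -0.02). The Id genes encode inhibitors of helix-loop-helix factors. Id4 was lower in each Runx1-null mouse, at 109, 182 and 141 in Runx1-null mice, against 194, 214 and 253 in Runx1-WT mice. The groups did not overlap (difference -0.64, standard error 0.28, limma unadjusted p = 0.0583, adjusted p = 1, exact permutation test, two-sided, p = 0.1). Id4 was the 1 gene of the 51 tested in the lists that was lower without overlap, against 3.47% of all genes tested. Id1 was at 181, 98.3 and 226 in Runx1-null mice, against 75.1, 76.1 and 185 in Runx1-WT mice, with overlap and the opposite sign (difference 0.64, standard error 0.49). Id2 differed by -0.02 (standard error 0.42) and Id3 by 0.45 (standard error 0.41), so the 4 Id genes did not share a direction.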

How the data were processed

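Sorted YFP+ luminal MECs gave total RNA, which was amplified (NuGEN Ovation V2) and measured on the Affymetrix 430 2.0 mouse array, 1 per mouse. The deposited intensity values are linear and were normalized across arrays by the authors with dChip, whose version and model are not given in the sources used here. Littermates are described without a record of who shared a litter, so how far the mice are independent, as the tests treat them, is not known. The precision is set by the number of arrays.

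The array holds 45101 probe sets, of which 34958 carried 1 gene symbol and 932 carried several, while 9211 had no name here. Intensities under 19.335 (pooled 20th percentile) were raised to that floor and log2 was then taken. Genes whose brightest probe set had a mean of at least 73.5 (the 40th percentile) were tested with limma 3.58.1 in R 4.3.3 (lmFit, eBayes with trend, Benjamini-Hochberg). An exact two-sided permutation test over mice was run on single values, where 0.1 is the smallest p. The code was tested on simulated data, with 5 false calls.

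The members, lists and tests were chosen with earlier results of these data known. Values in every mouse are given for the 10 members with the smallest unadjusted p, the 2 brightest of each role, members without overlap, Tgfb1, Tgfbr1, Tgfbr2, Smad2, Smad3 and Smad4, and, chosen after their values were seen, for most of the other members. Of each other list, the 2 smallest unadjusted p and the brightest are named. Pmepa1, Klf10, Klf11, Junb, Bhlhe40, Ccn2, Cdkn2b, Col1a1, Tgfbi and Id3 were added after their values were seen. Alternatives were a filter at the 60th percentile (297.9) or none, median scaling, quantile normalization, a pseudocount of 16, each mouse left out, animal number range as a block and within each range (4 mice with low numbers and 2 with high, of both genotypes), no trend, the median over probe sets, each other probe set and the t-test that the methods name.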

Additional observations from a re-analysis of the deposited data

How the results depend on the processing

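Limma called 0 members and 0 genes in every setting run. Genes at an unadjusted p under 0.05 numbered 234, but 535 without a filter, 123 after median scaling, 78 (without Runx1-WT mouse 1) to 818 (without Runx1-WT mouse 3) without each mouse in turn, with 579 without Runx1-null mouse 3, and 1866 among the 4 mice of the lower animal numbers. By the methods' t-test, 335 genes had a p no higher than 0.05, among them 1 member (Bmpr1a), and 0 passed Benjamini-Hochberg. Of the members, 0 to 3 had an unadjusted p under 0.05 in any setting, with adjusted p of 0.27 to 1. These were Tgfb1, Bmp4 and Fst without Runx1-null mouse 3, Ltbp1 and Ltbp2 without Runx1-WT mouse 3, Tgfbr3 without Runx1-WT mouse 1 and under either scaling, Tgfb1, Fst and Ltbp2 within the lower range, and Bmpr1a without a filter. Over the settings other than another probe set (16, or 15 for members that the stricter filter removed), 6 of 35 members kept 1 direction, Tgfbr3, Acvr1b, Bmp7, Bmpr1a, Smad5 and Fstl1, of which Smad5 turned on another probe set. Without each mouse in turn, 14 kept theirs. The median of the ligands was -0.13 to 0.22 over the left-out mice, 0.19 in the lower and 0.12 in the upper range of animal numbers. In the upper range, with 1 mouse a genotype and no test, the medians were -0.93 for the binding proteins and -0.34 for the membrane and intracellular inhibitors.

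Signs turned after median scaling for Tgfbr1 (0.00), Tgfbr2 (0.04), Acvr2a (0.03), Bmpr2 (0.04), Smad1 (0.07), Smad2 (0.03), Smad3 (0.03), Smad7 (0.04), Inhba (0.07), Inhbb (0.06), Ski (0.09), Tgif1 (0.08) and Tgif2 (0.07), where the median of all genes tested was 0.07. They turned after quantile normalization for Inhba (0.08), Ski (0.04) and Tgif2 (0.03), with the median over probe sets for Smad4 (-0.01) and Smad7 (0.00), and on another probe set for Smad4 (-0.04 and -0.03), Smad7 (0.06), Acvr2a (0.04), Smad5 (0.17) and Smurf2 (0.01). Within the lower range they turned for Tgfbr1 (0.05), Acvr2b (0.28), Bmp2 (0.51), Bmpr1b (0.62), Inhba (0.64), Ski (0.17), Tgif2 (0.56) and Bambi (0.19). Within the upper range they turned for Tgfb1 (0.65), Tgfb2 (-1.19), Tgfbr2 (0.21), Acvr1 (0.02), Bmp4 (0.55), Smad2 (0.20), Smad4 (-0.04), Smad7 (0.36), Smurf1 (-0.19), Inhbb (0.23), Fst (-1.27), Ltbp1 (-0.03), Ltbp2 (-0.76), Skil (-0.03) and Tgif1 (0.16). Without each mouse in turn, 21 members turned, with these ranges: Tgfb2 -0.18 to 0.67, Tgfb3 -0.02 to 0.47, Tgfbr1 -0.17 to 0.04, Tgfbr2 -0.19 to 0.04, Acvr2a -0.14 to 0.07, Acvr2b -0.73 to 0.32, Bmp2 -0.49 to 0.33, Bmpr1b -0.64 to 0.40, Bmpr2 -0.15 to 0.05, Smad1 -0.05 to 0.03, Smad2 -0.19 to 0.10, Smad7 -0.20 to 0.05, Smurf1 -0.06 to 0.11, Smurf2 -0.53 to 0.07, Inhba -0.44 to 0.32, Inhbb -0.10 to 0.08, Ski -0.13 to 0.17, Skil -0.06 to 0.07, Tgif1 -0.07 to 0.04, Tgif2 -0.50 to 0.54, Bambi -0.87 to 0.14. The cause was not tested. No paired analysis was possible because the labels give the mice no replicate numbers shared between genotypes. A block for the animal number range holds the genotypes in equal numbers, so it leaves each difference as it was and shows nothing about its stability. The number of arrays, 3 a genotype, limits what can be detected.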
